A study of Homo sapiens with 6 samples.

Results

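Long intergenic non-coding RNA genes, which carry the symbol LINC and a number, were examined in SW480 cells after knockdown of RBM39. Members were the gene symbols made of LINC and 5 digits whose mean over all 6 libraries was at least 20 raw counts, and 1 further symbol that met the count was left out and is not reported here. Of 967 such symbols in a table of 56303 genes, 459 had at least 1 count and 118 were members. The members were thus selected on their raw counts over both groups. Levels of the members are therefore given as a description. A mean over both groups lets a gene pass through the group where it is high. A mean under 20 counts was found for 5 members in shCtrl only and for 8 in shRBM39 only. Of the 5, 3 rose after knockdown, and of the 8, 6 fell. Among these are the increases of LINC01571 (the largest), LINC01132 and LINC00235 described here. The decreases of LINC01346 (the largest), LINC01001 and LINC01057 are also among them. For such members the change is not independent of the selection.

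Long intergenic non-coding RNAs are transcribed by RNA polymerase II, are mostly spliced and polyadenylated like mRNAs, and lie between or beside protein-coding genes. Many are held at low levels because nuclear exosome complexes degrade them soon after transcription, and some act on the gene next to them while others work at a distance. RBM39 is a nuclear RNA-binding protein related to the splicing factor U2AF2 and takes part in the choice of exons. A few genes that once received a LINC symbol were later found to encode very short proteins.

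SW480 is a cell line from a human colon adenocarcinoma. Cells were infected with lentivirus carrying either a nonsilencing hairpin (shCtrl, labelled WT in genotype) or a hairpin against RBM39 (shRBM39, labelled RBM39 knockdown), and the study's methods describe puromycin selection of stable clonal lines. Each group had 3 libraries, which the methods call replicate experiments, so that p-values measure the spread between these libraries of 1 line per hairpin. A difference between clones cannot be told apart from the knockdown. Libraries were made with a stranded mRNA kit and held 18042924 to 20428901 counts. RBM39 had 441 ± 6.53 CPM (counts scaled to a common library size by TMM) in shCtrl and 278 ± 13.3 CPM in shRBM39 (SD, n = 3 each), a log2 fold change of −0.67 ± 0.04 (SE; edgeR adjusted p = 1.24e-16). Of 8 epithelial markers, 7 reached a mean of 1 CPM in these libraries, with KRT8 at 6692 to 9521 CPM and KRT20 at 0.148 to 1.45 CPM. Summed epithelial markers were 11721 to 12549 CPM in shCtrl and 14775 to 15349 CPM in shRBM39. KRT8, KRT18 and KRT20 rose by 0.43, 0.24 and 1.82 on the log2 scale, and CDH1, VIL1 and CDX2, a transcription factor of the intestine, fell by 0.39, 0.09 and 2.13 (edgeR adjusted p of 0.0298 or lower for each). Summed leukocyte markers stayed between 0.116 and 0.645 CPM with PTPRC at 0 in every library. Summed fibroblast markers were 6.95 to 7.21 CPM in shCtrl and 9.60 to 12.5 CPM in shRBM39, mostly COL1A1 with COL1A2 and COL3A1 near 0, and summed endothelial markers were 3.47 to 4.58 CPM and 6.45 to 7.96 CPM with CDH5 near 0. The part of these marker differences in the changes of the LINC genes was not tested. In such bulk libraries, fewer cells of a type and less RNA per cell cannot be told apart.

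The LINC genes were weakly expressed. Their mean level per length was 1.14 RPKM at the median (reads scaled by exon length and library size, as deposited) with a range of 0.104 to 26.4 RPKM, against a median of 3.85 RPKM over tested protein-coding genes. A mean of at least 1 RPKM was reached by 69 of 118 members and at least 5 RPKM by 16. Just inside the threshold were LINC01485, LINC01057 and LINC01619 with 20, 21 and 21.3 mean counts, and just outside it LINC01024, LINC00957 and LINC00449 with 19.7, 19.3 and 19.2. The highest level per length was that of LINC00460, a transcript studied in several carcinomas, with a mean of 26.4 RPKM and 19.8 to 34.1 RPKM over the libraries. LINC01315 followed with 14.7 to 17.0 RPKM, and LINC00511, LINC00342 and LINC01123 came next with overlapping ranges of 8.04 to 14.0, 6.76 to 15.6 and 9.10 to 11.3 RPKM. These ranges cover both groups, overlap one another and, for LINC00342, reach into that of LINC01315. Within shCtrl the order was LINC00460, LINC01315, LINC00342, LINC00511 and LINC01123, and within shRBM39 LINC01605 came before LINC00511 (8.32 ± 0.106 and 8.20 ± 0.213 RPKM, a difference within their SD) and LINC00342 after both (6.89 ± 0.186 RPKM; SD, n = 3 each). The 5 members with the most counts, LINC00511, LINC01278, LINC00969, LINC00261 and LINC00963, held 28.2% of all counts of the members. Members lay on 23 chromosomes and had 5 exons and 2991.5 exonic bases at the median, and 14 had a single exon.

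The 300 bases around the start of 4 genes are shown because these genes had the largest decrease (LINC01346), the decrease with the lowest adjusted p (LINC00963) and the 2 largest increases (LINC01571 and LINC01132). Sequences are RefSeq promoters on GRCh38.p14, on the plus strand, from 250 bases before to 50 bases after the annotated start, at chr1:3940362-3940661, chr9:129488410-129488709, chr16:51762269-51762568 and chr1:234723792-234724091 in that order. Capitals mark TATA boxes (TATAAA), the CCAAT box, GC boxes (GGGCGG), E-boxes (CACGTG), cyclic AMP response elements (TGACGTCA), AP-1 sites (TGACTCA) and amino acid response elements (TGATGCAA), read on both strands.
LINC01346 promoter: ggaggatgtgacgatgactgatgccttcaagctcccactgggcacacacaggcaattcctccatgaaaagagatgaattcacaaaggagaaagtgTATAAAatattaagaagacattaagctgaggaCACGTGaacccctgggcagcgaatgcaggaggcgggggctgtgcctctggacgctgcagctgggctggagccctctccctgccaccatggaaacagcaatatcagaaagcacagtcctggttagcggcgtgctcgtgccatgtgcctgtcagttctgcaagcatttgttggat
LINC00963 promoter: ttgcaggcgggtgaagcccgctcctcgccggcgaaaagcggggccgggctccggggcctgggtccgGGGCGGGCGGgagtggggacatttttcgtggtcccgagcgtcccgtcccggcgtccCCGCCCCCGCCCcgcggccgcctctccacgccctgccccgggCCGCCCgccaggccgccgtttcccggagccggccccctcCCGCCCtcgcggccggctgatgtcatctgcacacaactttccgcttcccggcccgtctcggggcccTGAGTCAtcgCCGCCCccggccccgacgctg
LINC01571 promoter: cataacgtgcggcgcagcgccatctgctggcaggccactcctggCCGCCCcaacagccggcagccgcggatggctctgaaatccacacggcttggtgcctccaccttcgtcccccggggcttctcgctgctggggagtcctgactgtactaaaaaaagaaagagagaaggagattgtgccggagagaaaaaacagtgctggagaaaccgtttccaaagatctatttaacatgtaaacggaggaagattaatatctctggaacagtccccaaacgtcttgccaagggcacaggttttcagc
LINC01132 promoter: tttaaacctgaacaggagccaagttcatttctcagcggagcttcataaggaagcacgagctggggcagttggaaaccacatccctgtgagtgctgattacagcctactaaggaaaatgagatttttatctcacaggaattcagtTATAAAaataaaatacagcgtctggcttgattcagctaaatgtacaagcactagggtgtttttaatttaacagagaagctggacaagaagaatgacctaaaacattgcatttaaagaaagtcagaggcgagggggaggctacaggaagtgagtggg
The LINC00963 window had 78% GC and 7 GC boxes, some of them overlapping, and the LINC01132 window had 42.0% GC with a TATA box. The RefSeq start was the gene start of the count table for LINC01571 and LINC01132, lay 47 bases from it for LINC01346 and 5209 bases from it for LINC00963, where it is an inner start.

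RefSeq held a promoter for 93 of the 118 members. A GC box was found in 46.2% of these windows and in 44.6% of 27305 RefSeq promoters, a CCAAT box in 43% and 35.7%, a TATA box in 11.8% and 12%, an E-box in 10.8% and 7.43%, an AP-1 site in 8.6% and 4.92%, a cyclic AMP response element in 2.15% and 1.98%, and an amino acid response element in 1.08% and 0.923%. GC boxes occurred in 13 of 38 promoters of members that fell in shRBM39 and in 8 of 14 promoters of members that rose. TATA boxes occurred in 8 of the 38 and 2 of the 14. A match is a description of the letters in the window and not of binding.

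Knockdown of RBM39 was accompanied by lower levels of more LINC genes than it was by higher levels. All 118 members passed the filter on low counts. With edgeR's quasi-likelihood fit over 18243 genes and a threshold of 0.05 after Benjamini-Hochberg adjustment, 69 members (58.5%) changed, where 59.1% of all tested genes did. Of these, 52 members (44.1%) fell against 29.9% of all tested genes, and 17 members (14.4%) rose against 29.2%. Of the 105 members with a mean of at least 20 counts in each group, 46 fell and 14 rose. Falls made up 75.4% of the calls among all 118 LINC genes and 50.6% among all tested genes. With library totals in place of TMM these shares were 86.7% and 66.1%, since that scaling moved the median log2 fold change of all genes from −0.01 to −0.14. The median log2 fold change of the members was −0.28, and the members' median was 0.23 to 0.29 below that of all genes under every scaling, model and left-out library tried. The 3 shCtrl and 3 shRBM39 values did not overlap in 68 members (57.6%), against 63.3% of all tested genes. The share of members called was thus near that of all genes, while the split by direction differed, as a description.

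The summed level of all members gave the same picture. It was 991, 1006 and 1019 CPM in shCtrl and 785, 784 and 788 CPM in shRBM39. The groups did not overlap, and the sum corresponded to 0.105% ± 0.00225 of all counts in shCtrl and 0.0751% ± 0.000353 in shRBM39 (SD, n = 3 each). Among called members, 10 fell at least to 1 part in 2 and 2 rose at least 2-fold. Both of these increases (LINC01571 and LINC01132) passed the count threshold only through shRBM39. The decreases of LINC01346, LINC01001 and LINC01057 passed it only through shCtrl. The 52 decreases had a median of −0.60 on the log2 scale and the 17 increases a median of 0.57. The 49 members without a call ranged from −0.47 to 0.56, and 33 of them were below 0.

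**Figure D1:**
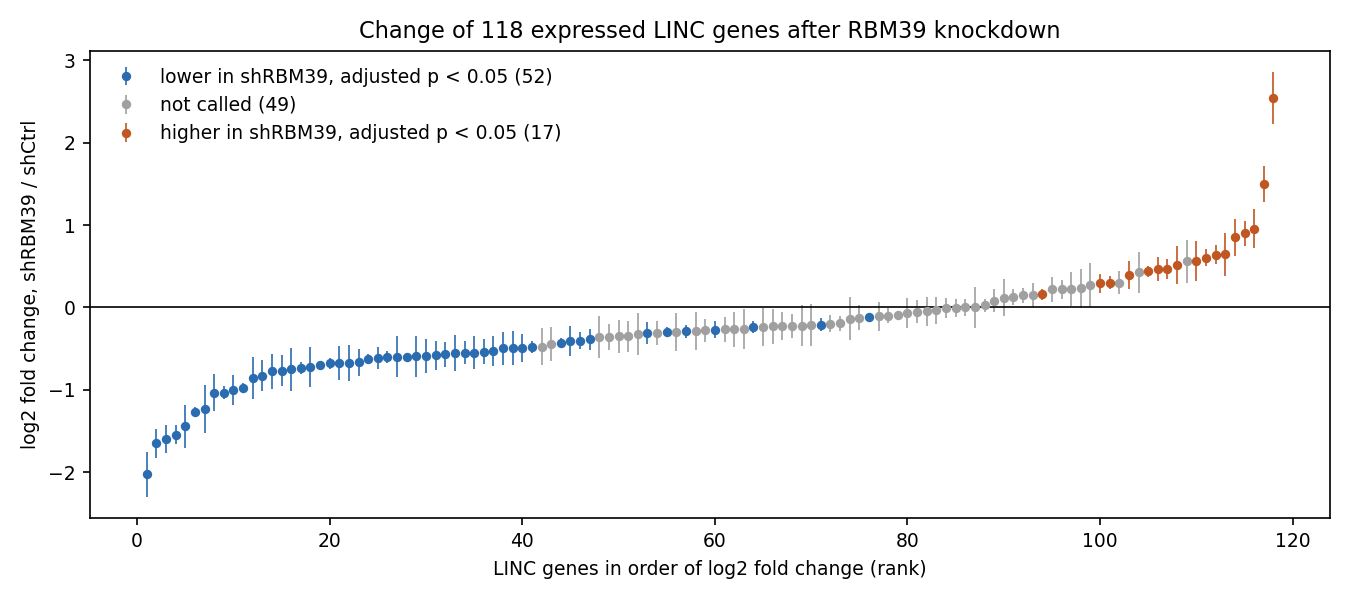
Log2 fold change (shRBM39 over shCtrl, vertical axis) of the 118 LINC genes in order of size (horizontal axis), with bars of 1 standard error from the edgeR fit and colours for the call at an adjusted p of 0.05. The 52 decreases fill most of the left side and reach −2.02, and the 17 increases reach 2.54.

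Other groups of genes were set beside the members over the same range of mean counts, in which 60.2% of 14277 tested genes were called, 28.2% higher and 32.0% lower, and groups did not overlap in 64.1%. Of 2306 other tested genes annotated as lncRNA in that range, 49.5% were called, 439 higher and 703 lower, with a median of −0.10. Of 10963 protein-coding genes, 63.2% were called, 3378 higher and 3551 lower, with a median of −0.01. The median of the LINC genes was therefore the lowest of the 3 groups, as a description with no test between them.

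**Figure D2:**
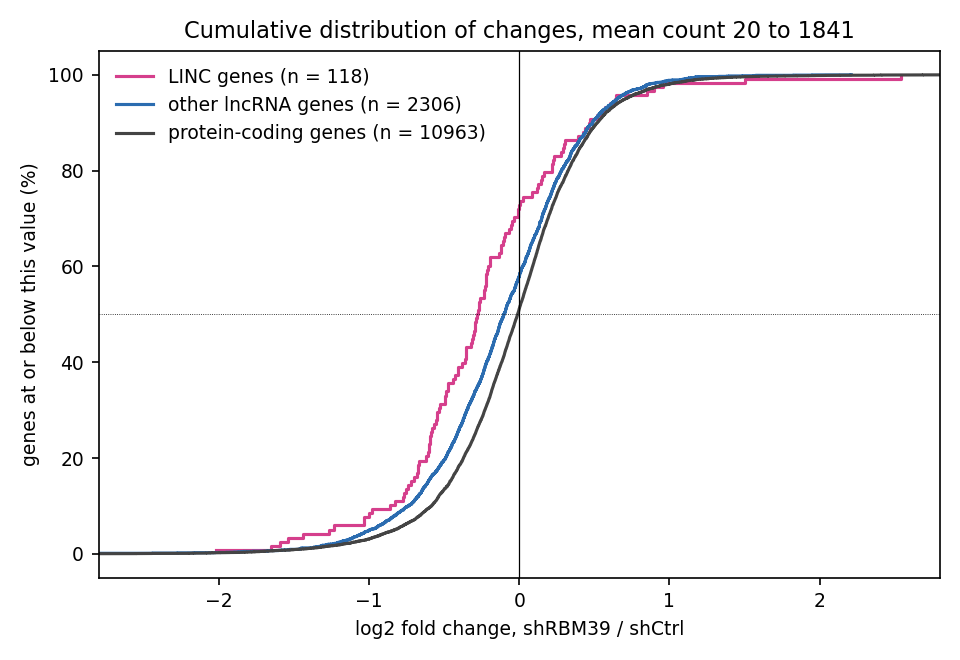
Cumulative share of genes (vertical axis, in percent) at or below each log2 fold change (horizontal axis) for the 118 LINC genes, 2306 other lncRNA genes and 10963 protein-coding genes with mean counts in the range of the LINC genes. The curve of the LINC genes crosses 50% at −0.28, to the left of the other lncRNA genes at −0.10 and the protein-coding genes at −0.01.

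The largest decrease was that of LINC01346 (chr1:3940565-3955262 on GRCh38, plus strand, 5 exons). It had 2.03, 2.54 and 1.97 CPM in shCtrl and 0.561, 0.290 and 0.723 CPM in shRBM39. Every knockdown library was below every control library, and the log2 fold change was −2.02 ± 0.27 (SE; edgeR adjusted p = 8.63e-08). LINC01291 (chr2:74918148-74938418) had 5.31, 5.46 and 4.33 CPM in shCtrl and 2.14, 1.28 and 1.34 CPM in shRBM39, a log2 fold change of −1.65 ± 0.18 (edgeR adjusted p = 7.02e-10). LINC01355 (chr1:23281309-23286752, a single exon on the minus strand) had 4.22, 4.43 and 5.12 CPM in shCtrl and 1.68, 1.63 and 1.24 CPM in shRBM39, a log2 fold change of −1.60 ± 0.17 (edgeR adjusted p = 8.17e-10). None of these 3 genes shared exonic bases with another annotated gene. LINC01021, now named PURPL and known as a transcript induced by p53, had 12.2, 10.6 and 13.1 CPM in shCtrl and 3.68, 5.05 and 3.67 CPM in shRBM39. Its level fell by 1.54 ± 0.12 on the log2 scale (edgeR adjusted p = 2.23e-13).

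LINC00963 (chr9:129483451-129513686, plus strand, 11 exons) had the lowest adjusted p of all members. Its values were 47.7, 47.6 and 48.7 CPM in shCtrl and 20.7, 20.04 and 19.1 CPM in shRBM39. The spread within each group was under 1 CPM (SD of 0.593 and 0.814), and the log2 fold change was −1.27 ± 0.05 (edgeR adjusted p = 5.61e-20). LINC01184, now SLC12A2-DT because it starts 594 bases from the start of SLC12A2 on the other strand, had 26.2, 32.8 and 26.5 CPM in shCtrl and 13.8, 15.0 and 13.2 CPM in shRBM39, a log2 fold change of −1.03 ± 0.08 (edgeR adjusted p = 2.39e-13), and 39 of its exonic bases overlap CCDC192. The remaining genes among the 10 largest decreases were LINC01001, LINC01057, LINC01004 and LINC01508. Their log2 fold changes were −1.44 ± 0.26, −1.24 ± 0.29, −1.04 ± 0.22 and −1.003 ± 0.18 (SE). With 1 library left out they ranged from −1.64 to −1.26, −1.65 to −0.95, −1.44 to −0.74 and −1.10 to −0.90 in that order. LINC01001 shares 2159 bases at 97.2% identity with another locus, so its reads can be split between copies.

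Among the most abundant members, 4 of the 5 with the highest level per length fell. LINC00342 had 36.4, 36.3 and 39.1 CPM in shCtrl and 19.4, 18.7 and 18.5 CPM in shRBM39, a log2 fold change of −0.98 ± 0.06 (edgeR adjusted p = 4.50e-16), and 411 of its bases have a near-identical copy elsewhere. LINC00511, a long transcript from a locus on chromosome 17, had 106, 113 and 116 CPM in shCtrl and 72.9, 72.6 and 76.0 CPM in shRBM39. This was the member with the most counts, and it fell by 0.60 ± 0.04 on the log2 scale (edgeR adjusted p = 3.77e-14). LINC00460 went from 34.7 ± 3.01 to 25.7 ± 1.75 CPM (SD, n = 3 each), a log2 fold change of −0.43 (edgeR adjusted p = 4.32e-07). LINC01123 changed by −0.12 (edgeR adjusted p = 0.0496), close to the threshold, whereas its near-identical copy LINC01106 changed by −0.74 (edgeR adjusted p = 1.01e-10), and both share long near-identical stretches (1071 bases of LINC01123 at 99.8% and 1727 bases of LINC01106 at 99.4% identity), so that neither value stands for 1 locus with certainty. LINC01123 lost its call when any of the shCtrl replicates was left out and without shRBM39 replicate 1 or 2 (edgeR adjusted p = 0.0758 to 0.172). The exception was LINC01315, which rose by 0.16 (edgeR adjusted p = 0.0405) with overlapping groups. It lost the call with library totals (0.04) and without shCtrl replicate 1 or 2 or shRBM39 replicate 1 or 2 (edgeR adjusted p = 0.159, 0.0793, 0.120 and 0.0959). Of the 22 members with a mean of at least 200 counts, 16 fell and 3 rose, and of the 51 members with a mean of 20 to 50 counts, 20 fell and 7 rose. The shares called were thus 86.4% and 52.9%. Changes are called more readily at higher counts, and the shares of all genes in these 2 ranges were not computed.

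The largest increase was that of LINC01571 (chr16:51762519-51773173, plus strand, 4 exons). It had 0.595, 0.518 and 0.0492 CPM in shCtrl, from 12, 11 and 1 counts, and 2.30, 2.32 and 2.27 CPM in shRBM39. The log2 fold change was 2.54 ± 0.32 (SE; edgeR adjusted p = 1.59e-08). It was 2.04 to 2.97 when 1 library was left out, the extremes being set by shCtrl replicates. LINC01132 (chr1:234724042-234731643) had 0.943, 0.707 and 1.08 CPM in shCtrl and 2.55, 2.61 and 2.58 CPM in shRBM39, a log2 fold change of 1.501 ± 0.22 (edgeR adjusted p = 3.48e-07). LINC01224 had 2.43, 2.21 and 2.36 CPM in shCtrl and 4.49, 4.36 and 4.23 CPM in shRBM39, a log2 fold change of 0.90 ± 0.15 (edgeR adjusted p = 3.89e-06). These 3 genes were named among called members without overlap between groups, so their separation is no result. LINC01571 and LINC01132 also passed the count threshold only through shRBM39.

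Smaller increases included LINC00237 (log2 fold change 0.96), LINC01225 (0.85), LINC00987 (0.64) and LINC00923 (0.61). LINC01225 is now annotated as a pseudogene, LDC1P, and LINC00987 shares 410 exonic bases with the pseudogene A2MP1 on the other strand. LINC00235 (0.65, edgeR adjusted p = 0.0316) and LINC01451 (0.57, edgeR adjusted p = 0.0452) had only 21.8 and 25.5 mean counts. LINC00235 lost its call without shCtrl replicate 1 (adjusted p = 0.0593), without shCtrl replicate 3 (adjusted p = 0.118) and without shRBM39 replicate 2 (adjusted p = 0.1499), all by edgeR. LINC01451 lost it without shCtrl replicate 1 or 2 (adjusted p = 0.105 and 0.112) and without shRBM39 replicate 1 or 3 (adjusted p = 0.06005 and 0.280), its log2 fold change being 0.37 without shRBM39 replicate 3.

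**Figure D3:**
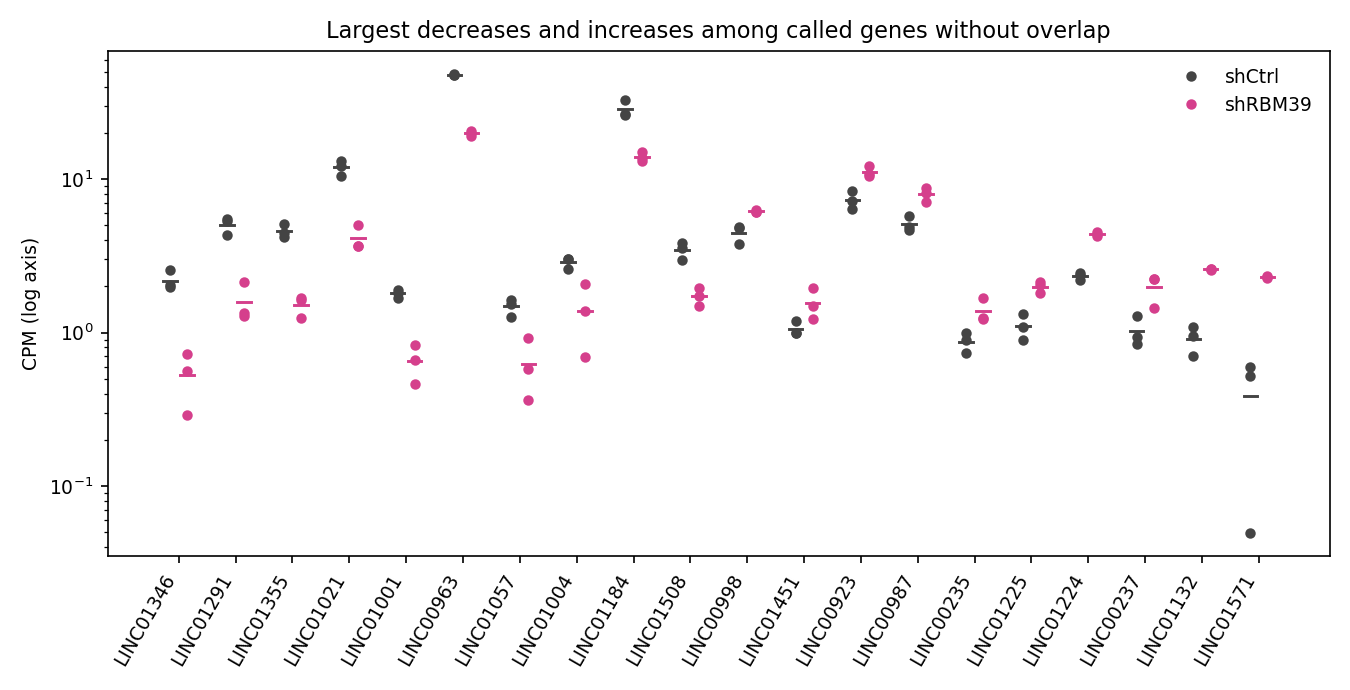
CPM in each library (log axis) of the LINC genes with the 10 largest decreases (left) and the 10 largest increases (right) among called members without overlap between groups, with 3 points and a line at the mean for each group. These 20 genes were selected for a call and for groups that do not overlap, so their separation is no result, and 1 shCtrl library of LINC01571 lies far below the other two at 0.0492 CPM.

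Members whose loci are now annotated as protein-coding were considered by themselves. GENCODE 44 lists 7 of the 118 as coding and RefSeq lists 6, LINC00843 being the one on which they differ. Of the 7, 3 rose (42.9%) and the other 4 had no call. Of all tested protein-coding genes, 33.5% rose and 30.8% fell, and the difference from these few members was not tested. LINC00998, which encodes the small membrane protein SMIM30, went from 3.77, 4.85 and 4.77 CPM to 6.13, 6.33 and 6.14 CPM, a log2 fold change of 0.47 ± 0.12 (edgeR adjusted p = 0.00149). LINC00116, which encodes the mitochondrial microprotein mitoregulin (MTLN), rose by 0.46 (edgeR adjusted p = 0.00616), and LINC00493, which encodes SMIM26, rose by 0.29 (edgeR adjusted p = 0.0304) and shares 144 exonic bases with DTD1. LINC00116 lost its call without shCtrl replicate 2 (edgeR adjusted p = 0.0602), and LINC00493 without shCtrl replicate 2 or 3 or shRBM39 replicate 2 or 3 (edgeR adjusted p = 0.0529 to 0.108). LINC00094 (BRD3OS), LINC01420 (NBDY, a microprotein bound to the mRNA decapping machinery), LINC00959 (C10orf143) and LINC00843 (TIMM23B-AGAP6) had log2 fold changes of −0.10, −0.01, −0.32 and −0.22 and no call. Among the 106 members annotated as lncRNA, 13 rose (12.3%) and 50 fell (47.2%), with a median of −0.29. Over all tested genes 29.2% rose and 29.9% fell.

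Exons of 48 members overlap those of another annotated gene on either strand, and whether the counting used strand is not given in the sources used here. Of these 48, 4 rose and 23 fell, and of the 70 members free of such overlap, 13 rose and 29 fell. The medians of both sets were −0.27 and −0.30. Of the 18 members with at least 200 bases copied elsewhere at 97% identity or more, 1 rose and 11 fell. Over all 118 members 14.4% rose and 44.1% fell, and over all tested genes 29.2% and 29.9%. Members that fell had a median exonic length of 3653 bases and 6.5 exons, and members that rose 2472 bases and 4 exons. Members without a call also had 4 exons at the median. The difference in length was not particular to LINC genes. Over all tested genes the medians were 4853 bases for those that fell and 3851 for those that rose. Across the 118 genes, which are not independent replicates, the log2 fold change was weakly related to log2 length (r = −0.18, rho = −0.18), to GC content (r = 0.14, rho = 0.17) and to the number of exons (r = −0.07, rho = −0.12), while for length over all 18243 tested genes r was −0.05.

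Changes of LINC genes were next set beside those of the nearest protein-coding gene, where that gene was tested. Over 96 pairs with 92 distinct neighbours, r was −0.10 and rho −0.03 between the log2 fold changes, and of 37 pairs in which both genes were called, 21 changed in the same direction. For the 45 pairs within 10000 bases, r was 0.20 and rho 0.25, and 10 of 14 pairs with both called had the same direction. In each of these 10 pairs both genes fell. In those 45 pairs the coding gene fell in 25 and rose in 4, whereas 30.8% of all tested protein-coding genes fell and 33.5% rose. Since falls were the more frequent calls among members and neighbours alike, some agreement in direction arises from that alone. Agreement beyond it was not tested. LINC00261 lies 2356 bases from FOXA2, a transcription factor of endoderm, and had 37.6, 43.5 and 44.3 CPM in shCtrl and 24.7, 28.8 and 28.2 CPM in shRBM39 (log2 fold change −0.62, edgeR adjusted p = 1.52e-10). FOXA2 went from 100.3 ± 2.26 to 68.3 ± 1.398 CPM (log2 fold change −0.55, edgeR adjusted p = 1.44e-13). LINC01578, now CHASERR and known to restrain the chromatin remodeller CHD2 beside it, changed by −0.48 (edgeR adjusted p = 6.14e-07) and CHD2 by −0.31 (edgeR adjusted p = 7.42e-09). These last 2 pairs were chosen after their values were seen.

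Several of the most changed members differed in direction from their neighbours. LINC01355 fell while HNRNPR, an RNA-binding protein of the hnRNP family whose gene is 17019 bases away, rose from 613 ± 13.8 to 891 ± 20.2 CPM (log2 fold change 0.54, edgeR adjusted p = 1.02e-14). LINC01291 fell while POLE4, a subunit of DNA polymerase epsilon whose gene is 20225 bases away, rose by 0.53 (edgeR adjusted p = 7.18e-08). Conversely LINC01132, LINC00923, LINC00237 and LINC01224 rose while IRF2BP2, ARRDC4, KIZ and ZNF91 fell by 0.46, 0.84, 0.40 and 0.35 on the log2 scale. Of these neighbours only ZNF91 lies within 10000 bases (3762). IRF2BP2, ARRDC4 and KIZ are 113864, 86153 and 19625 bases away. LINC01004 and KMT2E, which overlap in their gene bodies on opposite strands, both fell (log2 fold changes −1.04 and −0.47). Of the 14 members with a coding gene starting within 2000 bases on the other strand, 3 fell (21.4%) and 2 rose (14.3%). Over all members 44.1% fell and 14.4% rose, and over all tested genes 29.9% and 29.2%. Both genes were called in 3 of the 14 pairs. LINC01184 and SLC12A2 both fell (−1.03 and −0.18), LINC00982 rose by 0.52 and PRDM16 fell by 0.21, and LINC00649 fell by 0.30 while ATP5O rose by 0.25. The call of LINC00982 was lost on leaving out shCtrl replicate 1 or 3, or shRBM39 replicate 2 or 3 (edgeR adjusted p = 0.104 to 0.235).

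**Figure D4:**
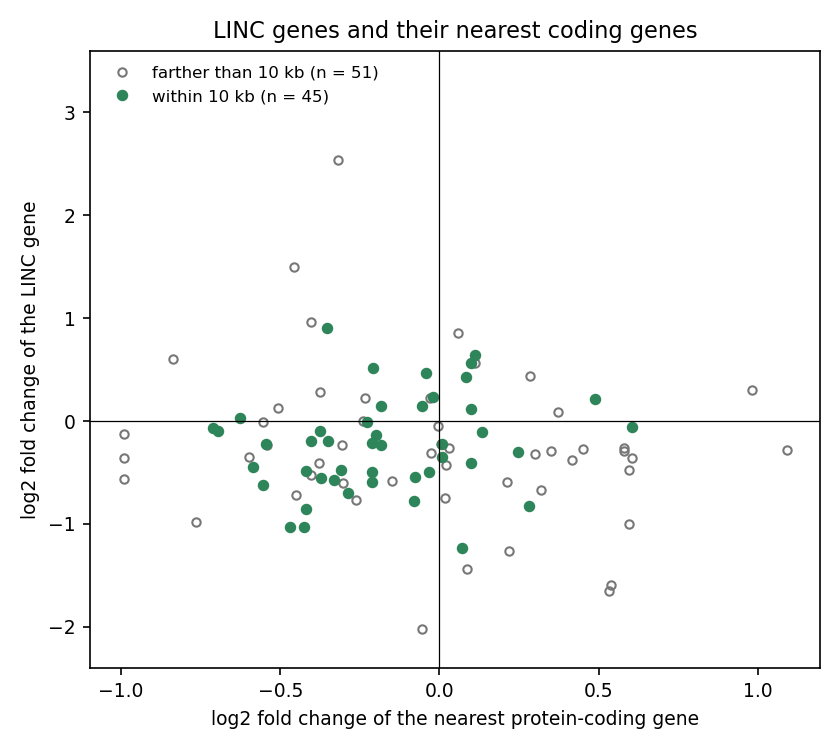
Log2 fold change of LINC genes (vertical axis) against that of their nearest protein-coding gene (horizontal axis) for the 96 pairs in which that gene was tested. Points are filled where the genes are within 10000 bases (10 kb, 45 pairs) and open where they are farther apart (51 pairs). Points fall on both sides of both zero lines, and r is −0.10 over all pairs and 0.20 over the near pairs.

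Splicing of the members was read from the authors' deposited table, which lists records with a difference between a group 1 and a group 2 but does not say which is the knockdown. Inclusion levels are the authors' values, 3 per group, and are given without a test because the table holds only records selected for a difference. Of 1582 records, 17 belonged to 11 members, 12 of them skipped exons, and the level was lower in group 1 in 13 and higher in 4. These records are not independent, since LINC00963, LINC01572 and LINC01184 have several each, all lower in group 1. The split by direction over all 1582 records was not computed. At least 10 reads stood behind every value in 6 records of 4 members, and at least 20 reads in 2 records. The exons of these last 2 records are shown with 20 bases of intron on each side from the hg38 reference, at chr6:57949859-57950011 on the minus strand (153 bases) and chr9:129493419-129493595 on the plus strand (177 bases), with the AG and GT at the intron ends in capitals.
LINC00680 exon: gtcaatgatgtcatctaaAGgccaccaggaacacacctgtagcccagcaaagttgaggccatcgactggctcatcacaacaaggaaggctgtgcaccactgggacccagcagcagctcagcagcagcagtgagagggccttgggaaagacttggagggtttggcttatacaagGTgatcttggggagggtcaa
LINC00963 exon: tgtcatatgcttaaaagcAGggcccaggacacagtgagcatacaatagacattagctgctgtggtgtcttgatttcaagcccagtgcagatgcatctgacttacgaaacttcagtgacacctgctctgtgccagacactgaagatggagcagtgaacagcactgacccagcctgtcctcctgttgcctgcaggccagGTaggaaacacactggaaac

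The exon of LINC00680 was included at 0.672, 0.697 and 0.749 in group 1 and at 0.334, 0.36 and 0.479 in group 2, from 45 to 72 reads per value, with no overlap. The gene level of LINC00680 rose from 12.4 ± 1.01 to 15.2 ± 0.390 CPM in shRBM39 (log2 fold change 0.30, edgeR adjusted p = 0.00146), and 1107 of its bases are near-identical to GUSBP1. The exon of LINC00963 went the other way, with 0.608, 0.651 and 0.485 in group 1 and 0.907, 0.821 and 0.856 in group 2, from 27 to 75 reads per value. Further LINC00963 records share its end and its skipping reads and begin at 129493416, 3 bases upstream (180 bases long), or at 129493478 (118 bases). Their levels were 0.411, 0.37 and 0.377 against 0.854, 0.654 and 0.756, and 0.44, 0.423 and 0.368 against 0.797, 0.624 and 0.707. These are alternative 3′ splice sites of 1 exon and not separate events.

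**Figure D5:**
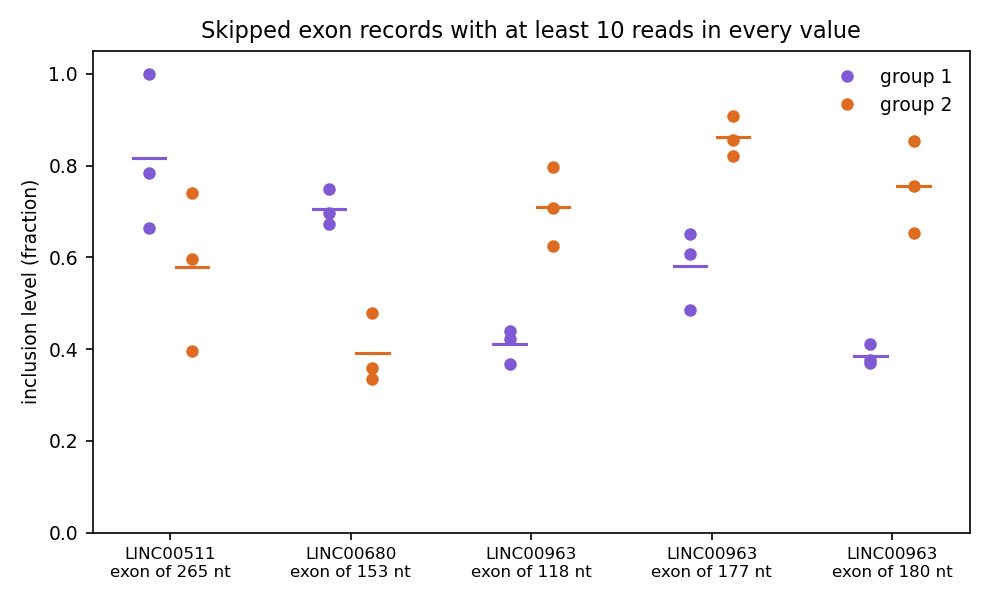
Inclusion level (fraction, vertical axis) in group 1 and group 2 of the authors' table for the skipped exon records of LINC genes with at least 10 reads in every value, with 3 points per group and a line at their mean. All 3 LINC00963 records have higher levels in group 2, the LINC00680 record has higher levels in group 1, and the groups overlap for LINC00511.

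The remaining members with records had few reads. These were LINC00668, LINC00969, LINC01184, LINC01224, LINC01399, LINC01572 and LINC01605, each with fewer than 10 reads behind at least 1 value, and LINC00630 with at least 10. Gene levels of LINC00668, LINC00969, LINC01399, LINC01572 and LINC00630 had no call (0.30, −0.09, −0.29, −0.01 and 0.08 as log2 fold changes), and LINC01605 fell by 0.24 (edgeR adjusted p = 0.00684).

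Genes of nuclear RNA decay, which act on such transcripts, were measured alongside. Of 20 genes of the nuclear exosome, its cofactor complexes and the Restrictor complex, 15 rose (75%) and 2 fell (10%), with a median log2 fold change of 0.21. Of all tested protein-coding genes, 33.5% rose and 30.8% fell. The 20 genes had mean counts of 170 to 6754, and changes are called more readily at higher counts. The shares of coding genes in that range were not computed. The smallest of the 15 rises was 0.10 (EXOSC10). The largest changes were those of MPHOSPH6 (213 ± 6.82 to 377 ± 24.3 CPM, log2 fold change 0.82), EXOSC9 (22.9 ± 0.5996 to 39.2 ± 2.10 CPM, 0.78) and C1D (6.88 ± 0.410 to 10.5 ± 0.998 CPM, 0.62), an exosome cofactor, a core exosome subunit and a further cofactor (SD, n = 3 each). The 2 that fell were ZFC3H1 (−0.49), the scaffold that links the exosome to polyadenylated nuclear RNA, and ZCCHC8 (−0.27), of the NEXT complex. Whether these genes play a part in the levels of the LINC genes was not tested.

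Long non-coding RNAs with other names were also measured. Of 20 listed, 17 were tested, 2 rose and 8 fell, with a median of −0.29 (16.4% and 28.0% of the 3135 other tested lncRNA genes rose and fell), and 1 of them, CYTOR, is LINC00152, itself a member (0.12, no call). The largest changes were those of LUCAT1 (4.36 ± 0.296 to 2.27 ± 0.554 CPM, log2 fold change −0.96), NEAT1 (143 ± 2.60 to 81.0 ± 3.58 CPM, −0.82), the scaffold RNA of paraspeckles, and MALAT1 (239 ± 9.25 to 136 ± 14.2 CPM, −0.81), a nuclear speckle RNA. DANCR (0.57) and MIR22HG (0.57) rose. UCA1, MIR31HG and CCAT1 were below the filter on low counts.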

How the data were processed

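mRNA of SW480 cells was sequenced in 3 shCtrl and 3 shRBM39 libraries, and sample titles gave group and replicate number. NC in the tables' headers was taken to mean shCtrl, as no other control exists here. Raw counts and RPKM values for each gene symbol were deposited by the authors. The submitters' processing notes name Trimmomatic 0.36, STAR 2.5.3a, featureCounts from Subread 1.5.1, edgeR 3.12.1 and GRCh38. Which annotation release was used, how multi-mapped reads were handled and whether counting used strand and molecular identifiers are not given in the sources used here, and these choices bear most on overlapping and copied LINC loci. The RPKM values were recomputed from the counts with a largest relative difference of 5.1e-15. The authors compared splicing with rMATS and deposited inclusion levels as a fraction, with read counts for each level. That table also holds p-values, FDR values and differences of the authors, which were not used.

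Differences in counts were assessed in edgeR 4.0.16 under R 4.3.3 with filterByExpr, TMM, a quasi-likelihood fit on the group alone, and Benjamini-Hochberg adjustment over 18243 genes at 0.05. SE is the log2 fold change divided by the square root of F. CPM carry the TMM factors (0.955 to 1.05). Replicates of a group differed by more than sampling noise (chi-square per gene 2.11 to 4.21). Mitochondrial genes held 6.90% to 8.22% of counts and the 10 highest genes 8.13% to 9.18%. Loci were matched to GENCODE 44 on GRCh38 by exon overlap on the same strand, copies were sought with BLAST+ 2.17.0 (at least 97% identity over 200 bases), and promoters came from RefSeq on GRCh38.p14. Alternatives were DESeq2 1.42.0, other scalings and filters, limma 3.58.1 on log2(RPKM + 0.1), a block for the replicate number, a correction for GC content and length, each library left out, a threshold of 0.01 and glmTreat at 0.5 (log2). The fits were tested on simulated counts first.

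The members and gene lists were chosen with earlier results of these data known. Named members were the 10 largest increases and 10 largest decreases of called members without overlap between groups, the 5 highest mean RPKM, those annotated as coding, those at the threshold and those with a splicing record. For other lists the 3 largest called changes were named, and any further gene was chosen after its values were seen.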

Additional observations from a re-analysis of the deposited data

How the results depend on the processing

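No called LINC gene changed direction under any alternative run. All 44 members called by DESeq2 (11 higher, 33 lower) were among the 69 of edgeR. A test against an absolute log2 fold change of 0.5 called 18 members (3 higher, 15 lower), 2232 of all genes, 2 decay genes and 3 of the other long non-coding RNAs. With a mean of at least 50 counts, 42 members were called (10 higher, 32 lower), and without exon overlap also 42 (29 lower), from fewer members. The number of higher members was 10 with library totals, 11 with RPKM and 11 at an adjusted p under 0.01. The members' median was −0.40 with library totals, −0.37 with RPKM and −0.24 with a mean of at least 50 counts. With library totals or RPKM, falls made up 86.7% or 85.1% of the members' calls and 66.1% or 66.4% of all calls. Leaving out 1 library gave 53 to 61 called members, 12 to 14 higher, 40 to 47 lower, a median of −0.31 to −0.24 and 10138 to 10263 called genes.

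The replicate numbers do not pair the libraries: deviations of same-numbered libraries correlated at 0.0061, −0.028 and 0.00011, and 1 library correlated best with its own number. With the number as a block, 67 members (16 higher, 51 lower) and 10810 genes were called, and all 67 were among the 69. Among the 38 named members, signs turned for 4 without a call, and over all members up to 5 signs turned under 1 alternative, none of them of a called member. LINC01420 was 0.0028 with DESeq2, 0.0033 with median-ratio factors, 0.0044 without a filter and −0.088 to 0.12 with 1 library left out. LINC01572 was 0.0055, 0.0027, 0.0037 and −0.12 to 0.075 in that order. LINC00630 was −0.039 with library totals and −0.037 with RPKM, and LINC00969 was 0.076 with the GC and length correction and 0.074 with the block as well. The cause was not tested. Of the other values of named members, 552 kept direction and call, 62 lost a call and 12 gained one. Depth limits members near 20 counts, whose SE reached 0.32.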

Other observations

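The called members were spread over most chromosomes, with no test of their positions. The chromosomes given here were chosen after their counts were seen, and 44.1% of all members and 29.9% of all tested genes fell. On chromosome 1, which held 18 members, 9 fell and 3 rose. On chromosome 5, 5 of 6 members fell, and on chromosome 13 all 3 fell. The 5 members on chromosome 3 had no call with edgeR.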
